A study of Mus musculus with 6 samples.

Results

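The genes described here encode the contractile machinery of smooth muscle. They are 10 genes chosen by symbol from the 31053 genes counted: Acta2, Actg2, Tagln, Cnn1, Tpm2, Lmod1, Myh11, Myl9, Mylk and Pln. All 10 had UMIs (unique molecular identifiers, each marking 1 captured transcript) in every library. They were measured by single-cell RNA sequencing (10x Genomics 3′ libraries) of live stromal vascular cells, depleted of CD45+ cells by sorting, from inguinal white adipose tissue (iWAT) of C57BL/6 male mice. There were 6 libraries, 1 for each age (Young, 9 weeks; Aged, 57 weeks) and temperature group. All mice were first kept at 30 °C for 3 weeks, then stayed at 30 °C (TN) or spent 3 days (3D) or 14 days (14D) at 6 °C. The study's methods say that mice were kept separate in the isolation of stromal vascular cells except where pooling is stated, and none is stated for these libraries, but no number of mice per library is given, so p-values measure the spread between these libraries only.

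In a vascular smooth muscle cell, filaments of α-actin slide along filaments of smooth muscle myosin. Calcium entering the cytosol activates myosin light chain kinase, which phosphorylates the regulatory light chain and starts the cycle, and the genes of this machinery share control by serum response factor (SRF) and its partner myocardin, which act through a DNA element called the CArG box. Arteries and arterioles carry these cells in their wall, while pericytes, the other mural cells, sit on capillaries and hold less of the machinery. Fibroblasts that turn into myofibroblasts also make Acta2 and Tagln, and adipocyte stem and progenitor cells (ASPCs) are the fibroblasts of this tissue.

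The libraries held 10172 to 12033 barcodes and 52068837 to 88508349 UMIs, and 67282 of 68103 barcodes had more than 200 genes. Barcodes under 2000 UMIs were kept apart from the rest. They made up 6.11% to 10.8% of barcodes in 5 libraries and 38.0% in the aged 14D library. A total of 524 barcode sequences occurred in more than 1 library. Cells were assigned to a class by marker genes that include none of the 10 (for mural cells 16 markers such as Notch3, Rgs5 and Gucy1a1), with at least 3 markers of the class and a lead of 2 over any other class. This gave 3974 mural cells, 48480 ASPCs, 4158 endothelial cells, 373 immune cells and 120 Schwann cells with 2000 or more UMIs. Among mural cells, 2515 had at least 2 more smooth muscle markers than pericyte markers and are called smooth muscle-like, 808 were pericyte-like by the reverse rule, and 651 were undecided. Mural cells carried a median of 10 of 16 mural markers and 1 of 10 ASPC markers. A total of 7986 barcodes, 833 to 1926 a library, had 3 or more markers of both mural cells and ASPCs. Such barcodes were placed by the lead of 2 or left without a class. Epithelial and myoepithelial markers summed to at most 1.05 CPM (UMIs scaled to 1000000 UMIs of the class in a library) in mural cells and skeletal muscle markers to at most 12.8, whereas adipocyte markers reached 119 and red blood cell markers 2421.

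Promoter sequences with matches to the CArG box are shown first, since it is the element named above. Of the 10 genes, 7 had a RefSeq promoter window (GRCm38.p6, 250 bases before to 50 after the start). The CArG box was searched as CC, 6 bases that are each A or T, then GG, a pattern that reads the same on both strands. It occurred in 1.63% of 32851 such windows, and with at most 1 of the 6 middle bases changed in 9.98%. The windows of Myl9 and Acta2 held matches, and those of Lmod1, Tpm2, Cnn1, Pln and Mylk held none of these letters. The matches are in capitals below. Myl9 had an exact box 161 bases before the start and a box with 1 changed base 99 bases before it, and Acta2 had 2 boxes with 1 changed base each, 84 and 34 bases before the start. Bases are counted from the RefSeq start. For Acta2 that start lies inside the gene interval given below, and so do both of its printed stretches.
Myl9, chr2:156775283-156775389, plus strand: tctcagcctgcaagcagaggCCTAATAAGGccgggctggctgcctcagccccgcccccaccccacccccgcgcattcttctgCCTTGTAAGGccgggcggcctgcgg
Acta2, chr19:34255438-34255467, minus strand: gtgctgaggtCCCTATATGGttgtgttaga
Acta2, chr19:34255388-34255417, minus strand: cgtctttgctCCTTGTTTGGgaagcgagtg
A match describes letters only. Binding was not measured.

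Smooth muscle-like cells held the machinery at the highest levels, and undecided mural cells came next. Levels are CPM, with no mitochondrial limit on cells unless stated. Summed over the 10 genes, smooth muscle-like cells had 38702, 38035 and 38781 CPM in the young TN, 3D and 14D libraries and 36724, 35740 and 35002 in the aged ones. For pericyte-like cells the young sums were 4093, 4030 and 4052, and the aged ones 5802, 3590 and 3931. Undecided mural cells lay between, at 18352, 19632 and 20831 in the young libraries and at 24947, 20908 and 16588 in the aged ones. The ranges of these groups of mural cells did not overlap. Endothelial cells had 171 to 264, ASPCs 53.6 to 125 and immune cells 13.6 to 53.1. Mural cells, which were 4.11% to 11.1% of barcodes with 2000 or more UMIs, held 81.0% to 90.8% of such a library's UMIs of the 10 genes.

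**Figure D1:**
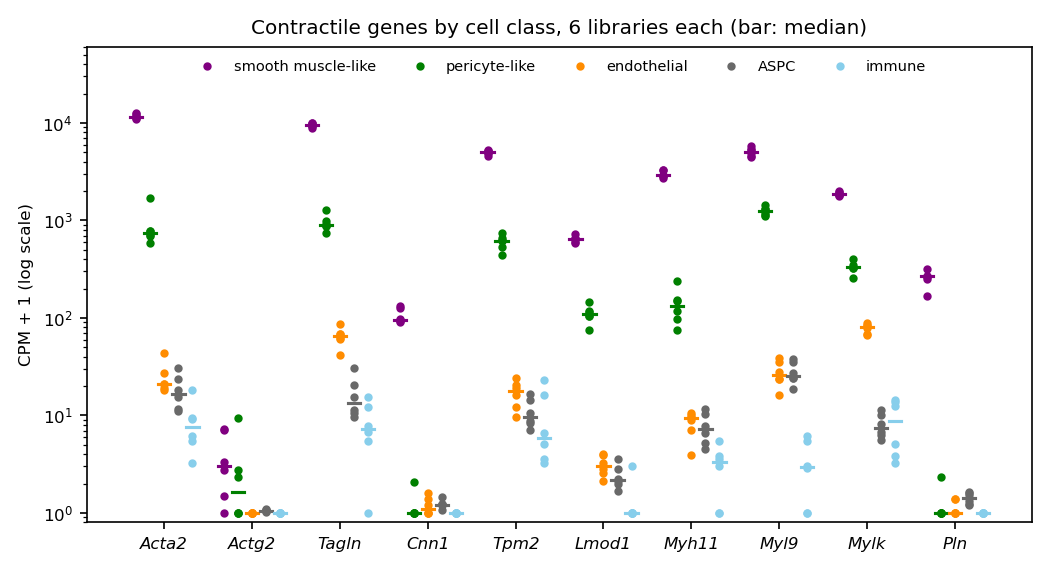
Levels of the 10 contractile genes by cell class, in CPM plus 1 on a log axis, in cells with 2000 or more UMIs and no mitochondrial limit. Each point is 1 of 6 libraries and each bar the median; the smooth muscle-like points lie above those of all other classes for every gene except Actg2.

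The thin filament genes were the first group. Acta2, on chromosome 19 (ENSMUSG00000035783, GRCm38 34241090 to 34255590, minus strand), encodes smooth muscle α-actin. In smooth muscle-like cells it stood at 12312, 11589 and 12592 CPM in the young TN, 3D and 14D libraries and at 11659, 10900 and 11139 in the aged ones. In pericyte-like cells the young values were 784, 704 and 587, and the aged ones 1690, 699 and 777. The aged TN library was the highest of the pericyte-like values and the remaining libraries overlapped between ages. Tagln encodes transgelin, an actin-binding protein, and ranged from 8862 to 9991 in smooth muscle-like cells and from 742 to 1266 in pericyte-like cells. Tpm2, which encodes β-tropomyosin, ranged from 4606 to 5215 and from 437 to 744.

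Cnn1, Lmod1 and Actg2 completed this group. Cnn1 encodes calponin 1, an actin-binding protein that inhibits the myosin ATPase. Its level in smooth muscle-like cells was 133, 90.2 and 96.9 CPM in the young TN, 3D and 14D libraries and 127, 91.6 and 93.2 in the aged ones. Both TN libraries were above all 4 cold libraries, and the share of all genes with that order was not counted. In pericyte-like cells Cnn1 had UMIs in the aged TN library alone, at 1.06. Lmod1 encodes leiomodin 1, which nucleates actin filaments, and ranged from 591 to 730 in smooth muscle-like cells and reached at most 143 in pericyte-like cells. Actg2, the γ-actin of gut and other visceral smooth muscle, had only 99 UMIs in 31 mural cells, and 1 cell of the young TN library held 20.2% of them.

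The myosin genes and the calcium regulator formed the other groups. Myh11, on chromosome 16 (ENSMUSG00000018830, 14194535 to 14291372, minus strand), encodes the smooth muscle myosin heavy chain. In smooth muscle-like cells it stood at 3312, 3312 and 2931 CPM in the young TN, 3D and 14D libraries and at 2836, 2858 and 2703 in the aged ones. All 3 aged libraries were below all 3 young ones. In pericyte-like cells the young values were 95.6, 116 and 74.5, and the aged ones 240, 153 and 147. There the order was the opposite, with all 3 aged libraries above the young ones. Mylk, which encodes the kinase of the regulatory light chain, ranged from 1766 to 1987 in smooth muscle-like cells and from 258 to 400 in pericyte-like cells. Endothelial cells had Mylk too, at 65.1 to 87.8 CPM.

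Myl9 encodes the regulatory light chain itself, and it was also present outside smooth muscle-like cells. It ranged from 4516 to 5769 CPM there and from 1110 to 1444 in pericyte-like cells. It took 12.6% to 15.7% of the UMIs of the 10 genes in mural cells of the 6 libraries, but 20.7% to 43.8% in ASPCs and 22.6% to 35.6% in pericyte-like cells. Pln encodes phospholamban, which inhibits the calcium pump of the sarcoplasmic reticulum. In smooth muscle-like cells it was at 315, 271 and 247 CPM in the young TN, 3D and 14D libraries and at 267, 265 and 167 in the aged ones. The aged 14D library was the lowest, and the other libraries overlapped between ages. In pericyte-like cells Pln had UMIs in the young 3D library alone, at 1.32.

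**Figure D2:**
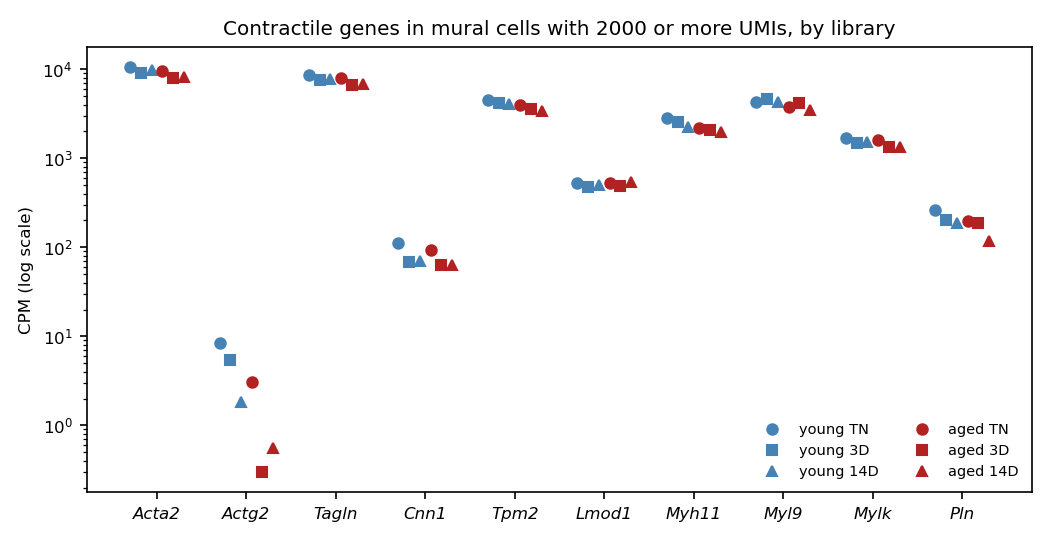
Levels of the 10 genes in all mural cells with 2000 or more UMIs, in CPM on a log axis, with young libraries in blue and aged libraries in red and the temperature groups as circles (TN), squares (3D) and triangles (14D). Myh11, Myl9 and Tpm2 were lower in every aged library than in every young one, while Lmod1 overlapped between ages.

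Outside mural cells, Acta2, Tagln and Tpm2 were detected in small shares of ASPCs, and in small shares of immune cells, which should lack them, once cells were thinned to equal depth. With every cell thinned to 2000 UMIs, Acta2 had a UMI in 83.9% of mural cells, in 2.30% of 48480 ASPCs (6.06% unthinned, median 7730 UMIs per cell) and in 2.68% of 373 immune cells (5.36% unthinned, median 4275). The exact 95% interval of the immune share ran from 1.29% to 4.88% and covers counting error only. Tagln was in 1.94% of ASPCs and 2.41% of immune cells, and Tpm2 in 1.65% and 2.41%. The CPM of these 3 genes overlapped between ASPCs and immune cells (Acta2 10.2 to 29.9 and 2.27 to 17.2), with medians over libraries that were higher in ASPCs (15.8 and 6.64 for Acta2), so no order of the classes is read from either. Myl9 was in 4.83% of thinned ASPCs (15.2% unthinned) and in 0.536% of immune cells (1.34% unthinned), with intervals of 4.64% to 5.02% and 0.0650% to 1.92% that did not overlap. Mylk was in 12.8% of endothelial cells (22.5% unthinned, median 3438 UMIs) against 2.14% of immune cells (3.49% unthinned).

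A limit on mitochondrial RNA, a common cell filter, removed most of the smooth muscle-like cells. The limit, set in each library at 3 median absolute deviations above the median, lay between 5.32% and 7.11% of UMIs. It removed 90.8% of smooth muscle-like cells (2283 of 2515), 24.0% of pericyte-like cells, 10.3% of endothelial cells and 1.90% of ASPCs. Smooth muscle-like cells had a median of 10.1% mitochondrial UMIs, pericyte-like cells 4.57% and ASPCs 2.49%. Of the UMIs of the 10 genes in mural cells, 90.6% were in cells above the limit, and of those in ASPCs 11.0%. Within the limit 1041 mural cells were left, 114 to 322 a library, and the summed level of the 10 genes fell to between 6927 and 13599 CPM, from between 26049 and 33350 without it. The comparisons below are therefore given for cells within the limit and for all cells.

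**Figure D3:**
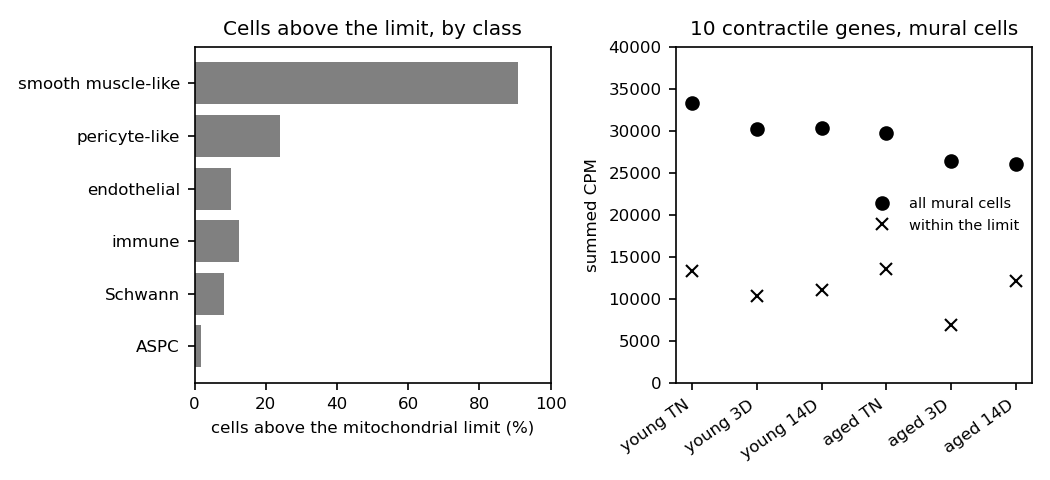
Left, the percentage of cells with 2000 or more UMIs that were above the library's mitochondrial limit, by class; right, the summed level of the 10 genes in mural cells in each library, for all cells (circles) and for cells within the limit (crosses). The limit removed 90.8% of smooth muscle-like cells and 1.90% of ASPCs, and every cross lies below every circle.

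Whether age changed the contractile genes in mural cells was asked by setting the 3 aged sums against the 3 young ones with temperature as a term (edgeR quasi-likelihood F test, Benjamini-Hochberg adjustment over all genes tested, threshold 0.05). Within the mitochondrial limit 0 of the 9 genes tested passed (Actg2 was removed by the filter on low counts), where 0.133% of 9050 genes did (12 genes, and 765 at an unadjusted p under 0.05). DESeq2 called 0 of the 9 as well, and 1 of them, Pln, had an unadjusted p under 0.05 in edgeR. Pln stood at 73.5, 62.4 and 24.9 CPM in the young TN, 3D and 14D libraries and at 52.0, 24.1 and 21.6 in the aged ones, and the groups overlapped. Its log2 fold change was -0.68 ± 0.23 (SE, edgeR adjusted p = 0.43). For Myh11 the log2 fold change was -0.06 ± 0.21 and for Acta2 -0.08 ± 0.15. The median of the 9 was -0.11, against -0.01 over all genes tested.

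With all mural cells included, 3 of the 10 genes were lower in aged mice, where 3.82% of 11367 genes were called and 1.48% were called lower. Myh11 stood at 2804, 2524 and 2247 CPM in the young TN, 3D and 14D libraries and at 2210, 2059 and 1969 in the aged ones. The 2 ages did not overlap. Its log2 fold change was -0.26 ± 0.06 (SE; edgeR adjusted p = 0.022). Pln stood at 263, 204 and 187 in the young libraries and at 196, 186 and 117 in the aged ones, which overlapped, with a log2 fold change of -0.38 ± 0.10 (edgeR adjusted p = 0.048). Actg2, at its few UMIs, had -1.87 ± 0.42 (edgeR adjusted p = 0.025). All 3 lost the call when certain single libraries were left out. The adjusted p of Myh11 was 0.17 without the young TN library, 0.10 without young 3D, 0.16 without aged TN and 0.11 without aged 3D. That of Pln was 0.15 without young TN, 0.18 without aged TN, 0.088 without young 14D and 0.13 without aged 14D. That of Actg2 was 0.054 without young TN, 0.14 without young 3D and 0.11 without aged 3D.

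Of the other 7 genes, 6 had log2 fold changes below 0 in all mural cells, from -0.21 for Myl9 to -0.10 for Mylk, and Lmod1 had 0.07. None of them passed. The median of the 10 genes was -0.19, against 0.00 over all genes. Myl9, Tpm2 and Myh11 were lower in all 3 aged than in all 3 young libraries, 3 of 10 where 10.9% of genes had that order. Smooth muscle-like cells were a smaller part of mural cells in each aged library, with 76.2%, 62.9% and 62.2% in the young TN, 3D and 14D libraries and 60.5%, 55.2% and 58.6% in the aged ones. The part that this mix played in the sums was not tested, and the values within each subclass follow.

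Within smooth muscle-like cells 1 of 10 genes passed for age, the rare Actg2 (log2 fold change -2.29 ± 0.54, edgeR adjusted p = 0.014), where 5.55% of 10416 genes did and 2.53% were called lower. Myh11 had a log2 fold change of -0.15 ± 0.06 (edgeR adjusted p = 0.13, and 0.044 without aged 14D), which turned to 0.023 within the mitochondrial limit (adjusted p = 0.99). Pln had -0.22 ± 0.09 (0.19) and Lmod1 0.17 ± 0.06 (0.13). Lmod1 was higher in all 3 aged libraries than in all 3 young ones (background 7.54%), and Tpm2, Actg2 and Myh11 were lower (3 of 10, background 12%). DESeq2 called 0 of the 10 and gave Actg2 no adjusted p. In edgeR the adjusted p of Actg2 was 0.064 without young TN, 0.15 without young 3D and 0.10 without aged 3D.

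Within pericyte-like cells 2 of 7 genes tested were higher in aged mice, where 2.67% of 7752 genes were called and 1.54% called higher. Myh11 had a log2 fold change of 0.94 ± 0.18 (SE; edgeR adjusted p = 0.00076). It passed with any 1 library left out, with adjusted p-values up to 0.049, and within the mitochondrial limit (1.02, edgeR adjusted p = 0.015), but not in DESeq2 (0.96, adjusted p = 0.082). Acta2 had 0.56 ± 0.14 (edgeR adjusted p = 0.016) and rested on the TN pair, since its log2 fold change was 0.25 without aged TN (adjusted p = 0.47) and 0.26 without young TN (0.44). Within the limit the adjusted p of Acta2 was 0.17. Tagln, Mylk, Lmod1, Myl9 and Tpm2 had log2 fold changes between -0.12 and 0.37 and did not pass. Myh11 was the 1 gene of 7 higher in all 3 aged than in all 3 young libraries (background 5.74%). The sums held 73 to 233 pericyte-like cells and 42 to 226 UMIs of Myh11 a library.

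Markers of other cell types were also summed in pericyte-like cells. The 6 smooth muscle markers of the gate summed to 324, 343 and 396 CPM in pericyte-like cells of the young TN, 3D and 14D libraries and to 381, 236 and 251 in the aged ones. The aged 3D and 14D libraries were the lowest of the 6, and Map3k7cl was at 0 in 5 libraries. Pln and Cnn1 had 1 UMI each in all pericyte-like cells, too few to compare. The rule for the subclass itself limits how many smooth muscle markers a cell can hold, so their sums cannot show how much smooth muscle RNA these cells held. Endothelial markers summed to 1227 to 1660 CPM in the young and 777 to 1328 in the aged libraries, which overlapped, and red blood cell genes to 11716 in aged 3D against 1.77 to 17.1 elsewhere. The part of these other cell types in the values of Myh11 was not tested.

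The age effect of Myh11 differed between the subclasses. On 12 sums with library as a block, the effect in smooth muscle-like cells minus that in pericyte-like cells was -1.13 ± 0.19 on the log2 scale (edgeR adjusted p = 0.015), the single gene of 9 past the threshold where 0.0919% of 9788 genes were, and 0.0817% below 0. DESeq2 gave the same call (adjusted p = 0.0057). The call was lost without the young 14D library (-1.02, adjusted p = 0.12), without aged TN (-0.90, 0.11) and within the mitochondrial limit (-1.06, 0.23), where 232 smooth muscle-like cells were left and Myh11 was not lower in aged mice in them. For Acta2 the difference was -0.66 ± 0.22 (edgeR adjusted p = 0.36).

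**Figure D4:**
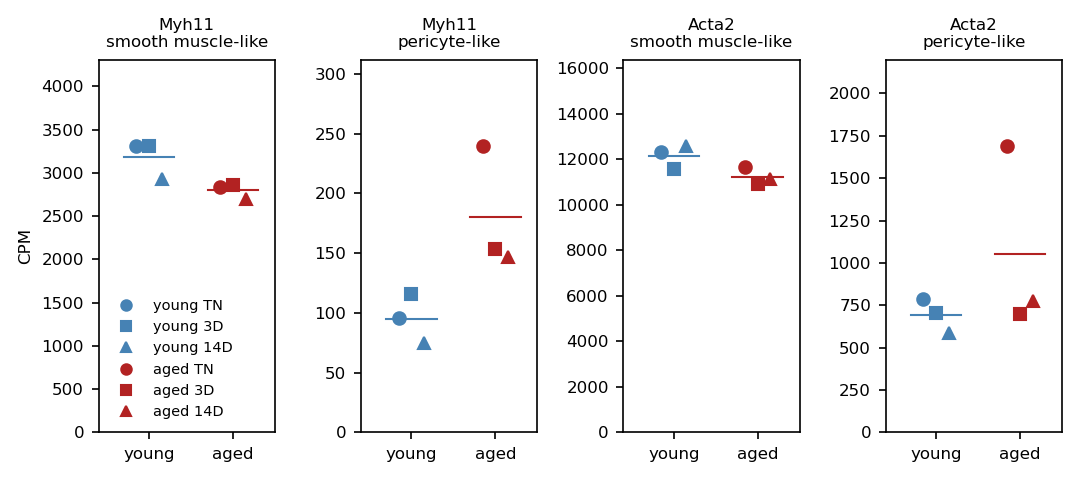
Myh11 and Acta2 in smooth muscle-like and pericyte-like cells of each library, in CPM on axes that start at 0 and differ in height; symbols mark temperature and the short lines the mean of 3 libraries. Myh11 was lower in all aged libraries in smooth muscle-like cells and higher in all of them in pericyte-like cells, and Acta2 was highest in the aged TN library among the pericyte-like values.

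Cold exposure was compared with TN in the same models, with age as a term and 3D and 14D tested together. Within the mitochondrial limit 0 of 9 genes passed in mural cells, where 0.122% of 9050 genes did (11 genes, and 651 at an unadjusted p under 0.05). All 9 were below TN at both times, and 6 had an unadjusted p under 0.05 in edgeR. Smooth muscle-like cells within the limit were 41.2%, 17.1% and 18.4% of mural cells in the young TN, 3D and 14D libraries. In the aged ones they were 22.4%, 10.5% and 28.1%. The part of this mix in the changes with temperature was not tested. Of 44 genes tested from the wider smooth muscle list given below, 40 were below TN at 3D and 29 at 14D. The share of all genes below TN was not counted. Among the 9, the largest changes were those of Pln, with log2 fold changes of -0.60 at 3D and -1.51 at 14D (edgeR adjusted p = 0.21), and Cnn1, with -1.45 and -1.22 (0.67). Cnn1 had only 94 UMIs in 31 mural cells within the limit, and 1 cell of the young TN library held 23.4% of them. The count of genes called depended on the filter on low counts and on the limit, and reached 7 of 10 with no filter and 7 with a limit of 10%. Calls over all genes ranged from 0 to 333 over the alternative settings, and the share in each setting is not given.

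With all mural cells included, 2 of 10 genes passed for temperature, where 1.81% of 11367 genes did. Cnn1 stood at 111, 68.7 and 70.9 CPM in the young TN, 3D and 14D libraries and at 92.4, 63.6 and 64.0 in the aged ones. Both TN libraries were above all cold libraries, and the share of all genes with that order was not counted. Its log2 fold change was -0.65 at 3D and -0.62 at 14D (edgeR adjusted p = 0.0053), and the call was lost without young TN (adjusted p = 0.10). Pln had -0.25 at 3D and -0.61 at 14D (edgeR adjusted p = 0.043), with adjusted p-values of 0.17 without young TN, 0.083 without aged TN and 0.069 without aged 14D. All 10 genes were below TN at 14D, and so were 35 of 46 genes of the wider smooth muscle list and 3 of 8 cytoplasmic actin and myosin genes. The share over all genes was not counted. Smooth muscle-like cells were a larger part of all mural cells at TN than in the cold at both ages. They were 76.2% against 62.9% and 62.2% in young libraries, and 60.5% against 55.2% and 58.6% in aged ones. The part of this mix in these changes was not tested. In smooth muscle-like cells Cnn1 passed alone among 10 (-0.52 and -0.44, edgeR adjusted p = 0.014, DESeq2 0.34), where 1.71% of 10416 genes did. Its edgeR adjusted p was 0.20 without young TN and 0.057 without aged TN. In pericyte-like cells Acta2 passed alone among 7 (-0.73 and -0.85, edgeR adjusted p = 0.0020), where 0.993% of 7752 genes did, and without the aged TN library its adjusted p was 0.73. DESeq2 gave 0.10 and the mitochondrial limit 0.47.

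Mural cells were also counted as a share of all cells with a class, by a two-sided exact permutation test over libraries in which 3 against 3 cannot give a p under 0.1. Within the limit the share was 1.63% ± 0.137 (SD, n = 3) in young and 2.34% ± 1.20 (n = 3) in aged libraries (exact p = 0.6). This difference of 0.704 percentage points rested on aged TN, and without it was 0.0136. For all cells it was 6.81% ± 1.60 and 7.02% ± 3.79 (exact p = 1). The aged TN library had the highest share, 11.3%, and aged 14D the lowest, 4.23%. At 3D the aged share was below the young one (5.50% and 6.12%), and at 14D as well (4.23% and 5.68%). The mural class joins the vascular smooth muscle cells and pericytes of this tissue, so these shares cover both.

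ASPCs were compared too, because fibroblasts can switch on contractile genes. None of 9 genes passed for age within the limit, where 11.7% of 15025 genes did. Lmod1 came nearest, with a log2 fold change of 0.87 ± 0.27 (edgeR adjusted p = 0.089), and Tagln had 0.76 ± 0.28 (0.13). Summed over the 10 genes, these ASPCs had 89.0, 68.1 and 55.9 CPM in the young TN, 3D and 14D libraries. The aged ones had 84.8, 51.3 and 112, above the young library at 14D alone. Barcodes of 2000 to under 4000 UMIs of the aged 14D library, described below, are part of these sums. Their part in the age effects was not tested. Myl9 was the 1 gene below 0, with -0.53 ± 0.17 (edgeR adjusted p = 0.098). Within the limit it stood at 34.6, 34.2 and 22.7 CPM in the young TN, 3D and 14D libraries and at 21.4, 17.6 and 24.6 in the aged ones, which overlapped. With all cells included and thinned to 2000 UMIs, Mylk was in 1.34% of ASPCs and 2.14% of immune cells. Unthinned its shares were 3.67% and 3.49%, so no order of these classes is read for it, as for Acta2, Tagln and Tpm2. Within the limit 0 of 9 passed for temperature (background 1.94%), and in endothelial cells 0 of 6 passed for age (background 0.453%). The age effect did not pass as different between mural cells and ASPCs for any of 10 genes (background 0.25%). The largest evidence was for Tagln, with a difference of -0.86 ± 0.20 (edgeR adjusted p = 0.086).

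In ASPCs, barcodes under 2000 UMIs held more of the contractile genes than the rest. There 9 of 9 genes tested were higher in barcodes under than over 2000 UMIs of the same library, by log2 differences of 1.78 for Myl9 to 3.22 for Pln, with a median of 2.74 against -0.01 over all genes. In that comparison 15.7% of 14121 genes were called and 8.6% called higher, and the 9 calls held in DESeq2, within the mitochondrial limit and with any 1 library left out. Barcodes under 2000 UMIs were gated with 2 or more markers, and the rest with 3 or more. The aged 14D library held 3308 ASPC barcodes under 2000 UMIs, against 230 to 364 in each other library. Within the limit it had 29 of the 32 UMIs of Pln in such barcodes. Acta2 stood at 68.1, 186 and 20.2 CPM in such ASPC barcodes of the young TN, 3D and 14D libraries and at 208, 84.9 and 416 in the aged ones, against 10.2 to 29.9 in ASPCs over 2000 UMIs. The aged 14D library was the highest and young 14D the lowest. The summed level of the 10 genes in ASPCs of the aged 14D library was 1736 CPM in barcodes under 1000 UMIs, 1044 from 1500 to under 2000, 693 from 2000 to under 3000, 506 from 3000 to under 4000 and 47.4 from 6000 on.

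Other cell types moved with this. In ASPC barcodes under 2000 UMIs of the aged 14D library, the 10 endothelial markers summed to 588 CPM against 101 to 166 in the other libraries, the 10 immune markers to 53.5 against 0 to 8.96, and the 6 smooth muscle markers to 268 against 68.1 to 161. The 4 red blood cell genes summed to 2291 there, to 6199 in young 3D and to 5.46 to 20.4 elsewhere. Their part in the levels of the contractile genes was not tested. None of 6 genes passed for age in ASPCs under 2000 UMIs (background 0.249%). With all classes together and within the limit, 9 of 10 genes were higher under 2000 UMIs (log2 1.24 to 2.60 over the 10, background 28.7%, 13.4% higher), but with all cells included 1 of 10 was called, Acta2, and it was lower (-0.59 ± 0.21, edgeR adjusted p = 0.039, background 31.6%, 16.8% lower). Age in barcodes under 2000 UMIs of all classes gave 0 calls among 7 genes and 0 among 7406 in all (127 at an unadjusted p under 0.05 in edgeR, 8 genes called by DESeq2). This rested on the 14D libraries, since 380 genes were called without young 14D and 415 without aged 14D. Myh11, at -0.02 with all 6 libraries, was then called lower, at -1.22 (edgeR adjusted p = 0.018) and -1.21 (0.016), and Acta2, Tagln, Myl9 and Tpm2 went from above to below 0 without a call.

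**Figure D5:**
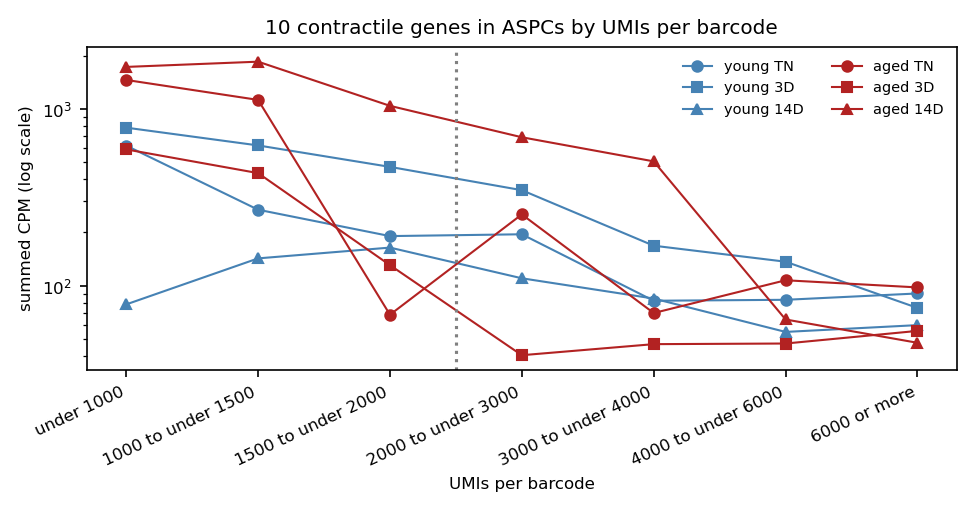
Summed level of the 10 contractile genes in ASPCs, in CPM on a log axis, against the number of UMIs per barcode in 7 bins, with 1 line for each library and a dotted line at 2000 UMIs. In the aged 14D library the level was between 506 and 1859 in the 5 bins under 4000 UMIs and between 47.4 and 64.2 above.

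The wider smooth muscle program was taken from a list of 46 other genes for regulators, thin filament and dense body, myosin control and calcium handling. For age in mural cells within the limit, 0 of 44 tested passed (background 0.133%). With all mural cells, 2 of 46 passed, a share near the background of 3.82%, and both were lower, Ppp1r14a, an inhibitor of myosin phosphatase (log2 fold change -0.25 ± 0.06, edgeR adjusted p = 0.040), and Casq2, a calcium-binding protein of the sarcoplasmic reticulum (-0.50 ± 0.11, edgeR adjusted p = 0.025). These names were chosen after their values were seen. Myocd, which encodes myocardin, stood at 59.6 to 75.1 CPM in all mural cells, with an age effect of 0.12 ± 0.10 (edgeR adjusted p = 0.57), and Srf at 63.4 to 74.3, with 0.04 ± 0.09 (0.89). In ASPCs Srf was higher in aged mice (0.35 ± 0.05, edgeR adjusted p = 0.0096), 1 of 10 of 44 list genes that passed there, 8 of them higher, where 11.7% of all genes did. Of 8 genes for cytoplasmic actin and myosin, 0 passed for age in mural cells (background 0.133%) and 2 in ASPCs (background 11.7%), 1 higher and 1 lower.

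The genes whose levels were most like the mean of the 10 over 30 sums of 6 libraries and 5 classes, all cells included, were Hrc (Pearson r = 0.989), Dgkb, Pdlim3, Xirp1 and Gm13861 (r = 0.986), among 5713 genes with at least 20 CPM in mural cells. The sums share libraries and the order mostly sets mural cells against the rest, so r is a description. Hrc stood at 62.7, 46.0 and 45.3 CPM in mural cells of the young TN, 3D and 14D libraries and at 41.5, 30.4 and 26.7 in the aged ones, with all 3 aged values below the young ones (background 10.9%). Within the limit its young and aged values overlapped. Within the mitochondrial limit the 5 genes were Dgkb, Slc2a4, Gm13861, Hrc and Casq2.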

How the data were processed

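The authors processed the single-cell reads with Cell Ranger 3.1.0 against the mm10 transcriptome and deposited raw UMI counts per gene and barcode, for barcodes called as cells and with no normalization. The single-nucleus data were not analysed here. Only barcodes with over 200 genes were used. The main cell filter was a mitochondrial limit per library (median plus 3 median absolute deviations), and age and temperature in mural cells were also tested without it. The tests within mural subclasses, and of ASPCs by depth, used all cells. Classes came from marker genes (3 or more, or 2 or more under 2000 UMIs, with a lead of 2 over other classes). Doublets were not removed, and no caller was run. CPM are UMIs per 1000000 UMIs of the class. Counts were summed per library and class and tested with edgeR 4.0.16 in R 4.3.3 (quasi-likelihood F test, TMM factors, filterByExpr, Benjamini-Hochberg adjustment) with 2 residual degrees of freedom for age and temperature, 4 for the interactions and 5 for the comparison of depths. DESeq2 1.42.0 was an alternative. The study tested cells, and here libraries are the samples. Standard errors were obtained from the log2 fold change and the square root of the F statistic. Shares were handled in Python 3.11.15 with scipy 1.17.1, by exact binomial intervals and exact permutation tests. The planned edgeR tests were each tried on simulated data. Those within mural subclasses and of ASPCs by depth were not.

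The 10 genes, the marker lists and the smooth muscle list were chosen with earlier results of these data known. The genes named are all 10, Myocd, Srf, list genes past the threshold for age in mural cells (at most 5 in each direction) and the 5 genes most like the 10. Alternatives were DESeq2, RLE factors, total UMIs, no filter on low counts, no second factor, other cell filters and gates, both depths together, thinning to 2000 UMIs and each library left out. The tests within smooth muscle-like and pericyte-like cells, and within ASPCs by depth, were added after seeing the data.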

Additional observations from a re-analysis of the deposited data

Results flagged for a closer look

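The age effect on Myh11 differed between smooth muscle-like and pericyte-like cells, by -1.13 on the log2 scale (edgeR quasi-likelihood test of the interaction, adjusted p = 0.015). Levels were lower in 3 of 3 aged libraries in the first and higher in 3 of 3 in the second. The call was lost without the young 14D library or without aged TN, and within the mitochondrial limit.

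Cells above the mitochondrial limit, which the main comparisons leave out, held 90.6% of the UMIs of the 10 genes in mural cells.

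Barcodes with 2000 or more UMIs that no class took (1212 in 6 libraries) held the 10 genes at a summed level of 3097 CPM in the lowest library and 6228 in the highest, against 13.6 to 53.1 in immune cells. Myl9 took 12.5% to 15.6% of these UMIs, beside 12.6% to 15.7% in mural cells.

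Groups of 1 library or of 3 were not tested for libraries that stand apart.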

How the results depend on the processing

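Counts below are how many of the 10 genes were called. Calls over all genes are given at the end of this section as ranges over settings, not for each setting. For age in mural cells none was called within the mitochondrial limit and 3 without it, and Myh11 turned to 0.012 on the log2 scale with at most 1 marker of another class. For age in ASPCs 3 were called with no filter on low counts and 1 with that gate, and in endothelial cells 1 with no filter. For temperature in mural cells 7 were called with no filter, 7 with a limit of 10%, and 2 each without a limit, with thinned barcodes and with the stricter gate. For temperature in ASPCs 1 was called by DESeq2 and 1 with no filter. For the age effect by class 1 was called with total UMIs, 2 with no filter and 3 with thinned barcodes. For barcodes under against over 2000 UMIs of all classes, 1 was called without a limit and 2 with 10%, and without a limit 8 log2 differences turned: Acta2 -0.59, Tagln -0.46, Myh11 -0.31, Cnn1 -0.14, Lmod1 -0.41, Myl9 -0.089, Tpm2 -0.42 and Pln -0.30. The limit removes most smooth muscle-like cells over 2000 UMIs. In smooth muscle-like cells 0 were called for age within the limit and 0 by DESeq2, and Myh11 turned to 0.023 within the limit. In pericyte-like cells 1 was called for age within the limit and 0 by DESeq2. For temperature 0 were called in either subclass, within the limit or by DESeq2, and for the age effect by subclass 0 within the limit.

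With 1 library left out, calls ranged from 0 to 2 for age in mural cells (Pln among them without aged 14D), 0 to 2 in endothelial cells and 0 to 7 for temperature in mural cells. For age in mural cells Myh11 ranged from -0.44 to 0.26, and for temperature in mural cells Cnn1 at 14D ranged from -2.27 to 0.10. For ASPCs the highest was 1 for age (without young TN) and 3 for temperature (without young 14D), with 0 as the lowest for temperature. Calls ranged from 0 to 1 for the age effect by class, with the limit and without, and from 0 to 1 for age in barcodes under 2000 UMIs (1, Myh11, without either 14D library). They ranged from 0 to 2 for age and from 1 to 3 for temperature in smooth muscle-like cells, from 1 to 2 and from 0 to 2 in pericyte-like cells, from 0 to 1 for the age effect by subclass and from 0 to 5 for age in ASPCs under 2000 UMIs (5 without young 3D). Without a mitochondrial limit they ranged from 0 to 2 for age and 0 to 5 for temperature in mural cells and from 0 to 7 for the depths (7 without aged 14D). The cause was not tested. With temperature as a term, a library left out leaves its partner of the other age without weight in the age effect.

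Over all genes, calls for age ranged from 2 to 434 in mural cells, 364 to 2258 in ASPCs and 14 to 451 in endothelial cells over the other settings, and for temperature from 0 to 333 in mural cells and 0 to 1195 in ASPCs. With 1 library left out they ranged from 38 to 139, 721 to 2095 and 4 to 428 for age and from 22 to 360 and 94 to 1620 for temperature, against 12, 1758, 47, 11 and 292 with all libraries. DESeq2 and the limit gave 39 to 118 calls for age in smooth muscle-like and 26 to 63 in pericyte-like cells. For temperature they gave 18 to 37 and 11 to 16, and for the age effect by subclass 1 to 11. Over the other settings, calls ranged from 27 to 115 for the age effect by class. For the depths with all classes together they ranged from 3052 to 4925. The mean share of mural cells stayed higher in aged libraries under all 12 alternatives, by 0.0136 points without aged TN and up to 1.07 without aged 3D, and by 0.923 with the stricter gate, where the exact p was 0.1, the smallest it can be. Libraries were left out of this share only within the limit. For all cells the aged share was below the young one at 3D and 14D. No paired analysis was possible because every group is 1 library, so no replicate number pairs samples across groups; temperature and age as terms, and library as a block, are part of the fits themselves. Depth limits Actg2, Pln and Cnn1 most, and pericyte-like sums hold few cells.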
